A study of Mus musculus with 502 samples.

Results

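Ubb is a polyubiquitin gene of the mouse, and its messenger RNA was followed here in 502 single Cd45+ cells from mouse kidneys that were either fresh or kept cold in a preservative. Ubb is 1 row of the 46603 gene rows in the count table, and it was picked by its symbol with earlier results of these data known, so its levels are given as a description and no test was run on them. The study asked whether hypothermic preservation keeps single cell transcriptomes close to those of fresh tissue. All cells came from wild type CD1 mice of about 3 weeks, whose kidneys were taken without perfusion, and sorted Cd45+ cells negative for propidium iodide were processed by SmartSeq2, a full-length method without molecular identifiers. Fresh kidneys were dissociated at once, and the other kidneys were held intact at 4 °C in HTS-FRS, a hypothermic storage solution, for 6 hours or for 1, 2, 3 or 4 days before dissociation. For a timepoint the kidneys of the same mouse were pooled, in part only for days 3 and 4, and no label names the animal behind a cell. Each timepoint was therefore read as 1 sample, the cells were not treated as replicates, and a difference between timepoints cannot be told apart from a difference between mice. Intervals below are exact 95% counting intervals and cover counting error only.

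The titles also carry a number that was read here as the library pool. Pool IM793 held 75 fresh cells, 76 cells of 6 hours, 78 of day 2 and 2 of day 4. Pool IM834 held 81 fresh, 75 day 1, 82 day 3 and 19 day 4 cells. Pool IM790 held 14 cells, all of day 4. Every preserved timepoint up to day 3 was in 1 pool, so each was set against the fresh cells of its own pool. The median cell had 695188 counts on genes, with a lowest total of 1759 and a highest of 1895431, and 8 cells had fewer than 100000.

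Ubiquitin is a small protein that is joined to other proteins by E1, E2 and E3 enzymes and removed by deubiquitinases, and chains of it send proteins to the proteasome. Ubb codes for several ubiquitin units head to tail, which are cut into single ubiquitins after translation, and it is known to be induced by heat and other stress. Rps27a codes for 1 ubiquitin fused to a ribosomal protein. Ubb (ENSMUSG00000019505) lies on the plus strand of chromosome 11 at 62551171 to 62553213 in GRCm38. Its transcript Ubb-201 has 1499 bases in 2 exons. Exon 1, from 62551171 to 62551595, is all untranslated, and the reading frame lies in exon 2, from 62552140 to 62553213. The 915 coding bases hold 4 units of equal length and 3 further bases before the stop codon. The 4 units are shown because their likeness leaves many stretches of a read's length at more than 1 position of the gene. They were read from the GRCm38 reference by the coordinates of the GENCODE annotation, 5′ to 3′, and capitals mark the 11 positions at which the 4 units are not all alike. Unit 1 lies at chr11:62552146-62552373, unit 2 at chr11:62552374-62552601, unit 3 at chr11:62552602-62552829 and unit 4 at chr11:62552830-62553057.
unit 1: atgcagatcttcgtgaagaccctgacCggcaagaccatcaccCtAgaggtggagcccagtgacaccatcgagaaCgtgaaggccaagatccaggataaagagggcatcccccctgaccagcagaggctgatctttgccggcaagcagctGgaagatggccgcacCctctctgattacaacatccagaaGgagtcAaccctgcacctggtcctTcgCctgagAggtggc
unit 2: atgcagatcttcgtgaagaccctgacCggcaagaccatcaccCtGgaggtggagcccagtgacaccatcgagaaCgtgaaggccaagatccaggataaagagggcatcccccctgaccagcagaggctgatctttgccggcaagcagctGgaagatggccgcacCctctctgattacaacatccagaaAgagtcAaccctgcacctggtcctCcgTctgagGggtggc
unit 3: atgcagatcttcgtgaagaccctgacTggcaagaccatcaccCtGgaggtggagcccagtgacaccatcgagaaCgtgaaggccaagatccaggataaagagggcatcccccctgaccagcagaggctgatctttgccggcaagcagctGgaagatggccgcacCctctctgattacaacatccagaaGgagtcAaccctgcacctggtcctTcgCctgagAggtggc
unit 4: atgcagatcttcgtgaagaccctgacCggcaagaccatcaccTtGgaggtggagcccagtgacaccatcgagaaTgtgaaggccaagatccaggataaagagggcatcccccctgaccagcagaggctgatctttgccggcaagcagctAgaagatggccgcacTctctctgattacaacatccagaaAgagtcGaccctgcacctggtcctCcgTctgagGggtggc

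The units were 95.6% to 99.1% identical to each other. Units 1 and 3 differed at 2 bases, and unit 4 differed from each of units 1 and 3 at 10. Reads had been cut to 75 bases before alignment, so every 75-base window of the transcript was looked up in 141767 annotated transcripts on both strands. Of the 1425 windows, 407 occurred more than once within Ubb itself, 809 occurred exactly in another gene, and 500 (35.1%) were found in Ubb once and nowhere else. Inside the coding sequence 15.8% of 841 windows were of this last kind, against 367 of 584 (62.8%) of the windows that reached into or lay in the untranslated parts. Both of the other genes are rows of their own in the table. Gm1821, a processed pseudogene on chromosome 14 at 46084028 to 46085000, shares 809 windows (56.8% of those of Ubb and 86.3% of its own). Gm8797, on chromosome 3 at 5750806 to 5751295, shares 344 windows (24.1% of those of Ubb and 61.1% of its own). A single read from these windows cannot be assigned to 1 gene by its sequence. The paper states that reads were sequenced in pairs, and mates were not considered here. A pair with its mate in a unique stretch could still be placed. The treatment of reads with several positions in the counting is not stated anywhere in what was read here. The count of Ubb, and those of Gm1821 and Gm8797 even more, are therefore uncertain, to an extent that was not measured.

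**Figure D1:**
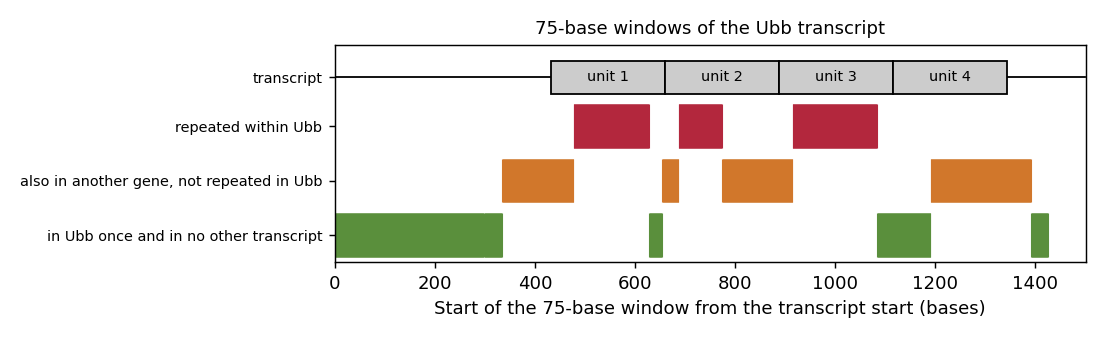
Windows of 75 bases along the Ubb transcript, placed by their start in bases from the transcript start (x axis), in 3 rows: found in Ubb once and in no other transcript, found also in another gene but once in Ubb, and repeated within Ubb. The drawn boxes are the 4 ubiquitin units. The 500 windows of the first kind lie mostly ahead of the units, and the 407 repeated windows all start within the first 3 units.

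Ubb was among the most widely read genes of the table. It had 310284 reads in all, 0.0895% of the counts on genes, which placed it at rank 96 by reads. A read was seen in 484 of 502 cells (96.4%), a share reached by only 18 genes, Ubb included. The median cell had 475.5 Ubb reads and 726 rpm, that is, reads for every 1000000 counts on genes, and the highest cell had 5000 rpm. The 18 cells without a Ubb read were of low content in general. Their median total was 224176 counts against 707396 in the other cells, their median number of genes was 716 against 1906, and their median mitochondrial share was 11.2% against 2.95%. Fewer than 1000 genes were read in 11 of these 18 cells, as in 7.44% of the others. Actb, which codes for beta-actin, was still read in 16 of them and Gm1821 in 0. They were 3 fresh, 2 from 6 hours, 1 day 1, 2 day 2, 6 day 3 and 4 day 4 cells. By the marker gates defined further on, 5 were in the C1q gate, 5 in the Csf1r gate and 8 in no gate. The T, B and S100a8 gates held 0 of them. The share of cells with a read was 97.3%, 97.4% and 97.4% in fresh, 6 hour and day 2 cells of pool IM793, and 98.8%, 98.7%, 92.7% and 84.2% in fresh, day 1, day 3 and day 4 cells of pool IM834. With the 19 day 4 cells the last share has an exact binomial interval of 60.4% to 96.6%. In the fresh cells of the pool the interval is 93.3% to 99.97%. Thinned to 100000 counts a cell, with shallower cells left out, the share was 88.2% (63.6% to 98.54%) in 17 day 4 cells and 98.75% (93.2% to 99.97%) in 80 fresh cells. These intervals count cells of 1 sample each and say nothing of the spread between mice. The mix of cells also differed. Pool IM834 had 44 T gate and 8 C1q gate cells when fresh, and 7 and 54 at day 3. A change in the share with a read cannot be told apart from this mix.

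Ubb had a higher median in the fresh, 6 hour and day 2 cells of pool IM793 than in any group of pool IM834. In pool IM793 the fresh cells ran from 0 to 3756 rpm with a median of 1026, the 6 hour cells from 0 to 2636 with a median of 949, and the day 2 cells from 0 to 5000 with a median of 974. In pool IM834 the fresh cells ran from 0 to 1417 rpm with a median of 664, the day 1 cells from 0 to 2064 with a median of 548, and the day 3 cells from 0 to 2186 with a median of 460.0. The ranges overlap throughout, since each of these groups holds cells at 0, but the 3 medians of pool IM793 lie above all medians of pool IM834. The 19 day 4 cells of pool IM834 were the lowest, from 0 to 809 rpm with a median of 276. The 14 day 4 cells of pool IM790 ran from 0 to 4761 rpm with a median of 947, a level like that of pool IM793, with 26.1% of their Ubb reads from 1 cell. The 2 day 4 cells of pool IM793 had 649 and 833.7 rpm. Day 4 cells thus had a median above that of fresh pool IM834 in one pool and below it in another, and the timepoint cannot be told apart from the pool there.

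**Figure D2:**
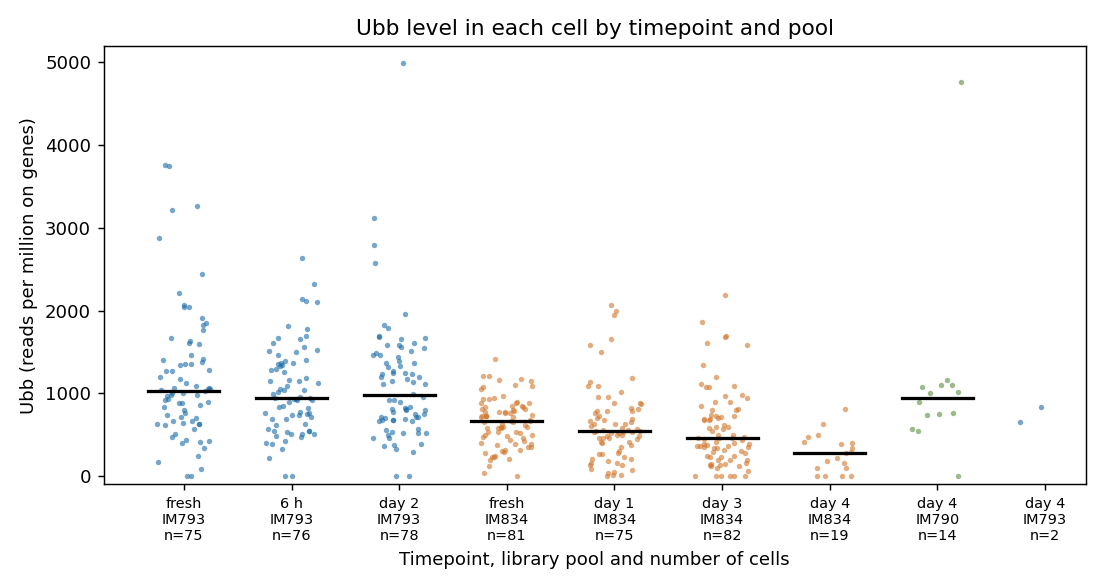
Ubb in each of the 502 cells (y axis, rpm) by timepoint and library pool (x axis, with the number of cells). Points are cells, black lines are medians of groups of at least 5 cells, and colours mark the pools. Medians lie at 949 to 1026 rpm in the 3 large groups of pool IM793 and at 276 to 664 rpm in pool IM834.

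With the counts of all cells of a group summed and scaled to 1000000 (CPM), fresh pool IM793 had 1195 (1186 to 1205) and fresh pool IM834 had 639.6 (632 to 647). The log2 ratio between them was 0.90 (0.88 to 0.92), while the median of all genes tested was -0.25. A log2 ratio of 1 or more, used below as a fixed mark of size and not as a test, was met by 19.1% of genes upward and 28.2% downward in this pair, and Ubb was inside it in a comparison where 51.5% of genes lay at least as far from 0. Of the 75 fresh cells of pool IM793, 57 were above the median of fresh pool IM834, and 20 were above its highest cell. The fresh cells of pool IM793 also had more genes (median 2649 against 1843), a lower mitochondrial share (2.02% against 3.88%), a lower share of 18S ribosomal RNA (5.79% against 9.84%) and another mix of cells. The part of these in the gap was not tested, and mouse, library pool and cell mix cannot be told apart over all cells.

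Summed over all cells of a group, Ubb stood within 0.21 of the fresh cells of its own pool on the log2 scale up to day 3. In pool IM793 the CPM was 1036 (1029 to 1044) at 6 hours and 1095 (1087 to 1102) at day 2, log2 ratios of -0.21 (-0.22 to -0.19) and -0.13 (-0.14 to -0.11) against fresh. In pool IM834 it was 605 (598 to 613) at day 1 and 598 (591 to 605) at day 3, log2 ratios of -0.08 (-0.10 to -0.05) and -0.10 (-0.12 to -0.07). With the fresh cells of both pools as reference, those of pool IM793 turned to 0.15 and 0.23, and those of pool IM834 kept their sign. Means of log2(rpm + 1), which weigh the cells without a read, gave -0.38 at day 1 and -0.82 at day 3. Within the C1q gate of pool IM793, defined further on, the ratios of the sums were -0.98 and -0.97. The mix of cells behind these sums differed between timepoints. In pool IM793, from fresh cells to day 2, the summed level of 6 listed B cell genes went from 2.08 to 4808 CPM and that of 6 neutrophil genes from 7622 to 283 CPM. In pool IM834, from fresh cells to day 3, that of 6 T cell genes went from 3348 to 538 CPM and that of 6 C1q macrophage genes from 3044.0 to 13457 CPM. Over all cells the mix and the level of Ubb in a cell cannot be told apart. In these 4 comparisons 84.2% to 94.1% of all genes lay at least as far from 0 as Ubb did. Genes past the mark of 1 made up 21.5% upward and 15.1% downward at 6 hours, 27.1% and 18.4% at day 2, 20.1% and 21% at day 1, and 21.1% and 22.4% at day 3. In pool IM793 the median of all genes was 0.16 at 6 hours and 0.23 at day 2, so Ubb lay somewhat below the bulk of genes there. In both pools the medians per cell were lower along with the sums. There, 35 of 76 cells at 6 hours and 38 of 78 day 2 cells were above the fresh median of pool IM793. In pool IM834, 26 of 75 day 1 cells and 30 of 82 day 3 cells were above its fresh median.

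Day 4 of pool IM834 was the exception. Its 19 cells summed to 321 CPM (309 to 333), 0.502 of the fresh level, a log2 ratio of -0.995 (-1.05 to -0.94). This falls just short of the mark of 1, which 33.2% of genes passed upward and 22.8% downward. The median of all genes was 0.25 and 56.1% of genes lay at least as far from 0. Only 1 of the 19 cells was above the median of the fresh cells, and 4 were above the median of day 3. The T cell genes stood at 24.6 CPM in these cells, with Cd3e, Cd3d, Trac and Lck at 0, and the macrophage genes at 17908 CPM. The ratio to fresh was -0.61 with DESeq2 size factors, which scale by the typical gene in place of the total, and -2.44 by means of log2(rpm + 1). Against day 3 the log2 ratio was -0.90 (-0.96 to -0.84), with 30% of genes past the mark upward and 21.1% downward. The day 4 cells had the fewest genes of the large groups of the pool (median 1130 against 1843 in fresh cells) and a mitochondrial share of 4.60% against 3.88%, and the part of these in the difference was not tested. For bulk sums of this kind, fewer cells of a type and less RNA per cell cannot be told apart, which the gates below address in part.

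Ubb varied less between cells than most of the 598 genes read in at least 50% of cells, few of which were read in as many cells as Ubb. The variation of a gene in these data also depends on the share of cells with a read. Its coefficient of variation in rpm was 0.666 in fresh cells of pool IM793 and 0.455 in fresh cells of pool IM834. The medians over these genes were 1.11 and 1.21. It was 0.509 at 6 hours and 0.651 at day 2, against gene medians of 1.16 and 1.28. In pool IM834 it was 0.731 at day 1, 0.806 at day 3 and 0.820 at day 4, against 1.44, 1.55 and 1.92. Both Ubb and the median gene thus had a higher variation at each preserved timepoint of pool IM834 than in its fresh cells. The day 4 cells of pool IM790, with their 1 cell at 4761 rpm, gave 0.992 against 0.996.

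The cells were then split by 5 marker genes, each counted as present at 10 reads or more. Cd3e, part of the T cell receptor complex, gave a T gate of 21.1% of the 502 cells. Cd79a, part of the B cell receptor complex, gave a B gate of 74 cells (14.7%), and C1qb, a chain of complement C1q made by tissue macrophages, gave a C1q gate of 24.9% of all cells. The growth factor receptor gene Csf1r without C1qb gave 72 cells, and S100a8, a calcium-binding protein gene of neutrophils, gave 32. A further 18 cells held other combinations and 75 held none of the 5 markers. Further markers of each list were read in most cells of the T, B and C1q gates, and less evenly in the other 2. The other 5 listed T cell genes were read in 67% (Cd2) to 88.7% (Trac) of the T gate, the other 5 B cell genes in 60.8% (Cd22) to 100% (Cd79b) of the B gate, and the other 5 macrophage genes in 68.8% (Adgre1) to 98.4% (C1qa) of the C1q gate. In the Csf1r gate the lysozyme gene Lyz2 was read in 95.8%, Ccr2 in 69.4%, Ly6c2 in 47.2%, Itgax in 33.3% and the dendritic cell marker Flt3 in 8.33%. Lyz2 was also read in 83.2% of the C1q gate and 68.75% of the S100a8 gate, and the neutrophil gene Csf3r in 52.8% of the Csf1r gate. In the S100a8 gate S100a9 and Csf3r were read in 90.6%, Cxcr2 in 81.25%, and Retnlg and G0s2 in 53.1%, while the T cell gene Cd3d was read in 34.4%. The Csf1r and S100a8 gates are therefore called by their marker and not by a cell type. Ptprc, the gene of Cd45 by which the cells were sorted, was read in 84% of the C1q gate.

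Over all cells Ubb had its highest median in the S100a8 gate, at 1358 rpm, followed by 879 in the T gate, 798 in the Csf1r gate, 693 in the B gate and 467 in the C1q gate. Pools and timepoints are unevenly spread over the gates, so the order was read again within each group of at least 5 cells. In fresh pool IM834 the T gate had a median of 723 rpm, the B gate 570.0 and the C1q gate 351. At 6 hours the order was T at 1213, S100a8 at 1127, Csf1r at 957, B at 735 and C1q at 565, and at day 2 it was Csf1r at 1441, T at 1364, B at 917 and C1q at 555. At day 3 it was T at 792, B at 590.2, C1q at 395 and Csf1r at 238.1. By medians the T gate was above the B gate and the B gate above the C1q gate in each of these 4 groups. At day 1 the steps were smaller (533, 508 and 498). By sums the B over C1q log2 ratio was 0.20 in fresh pool IM834, 0.35 at 6 hours and 0.64 at day 2. It was 0.04 at day 1 and -0.0075 at day 3. Under the alternative settings it changed sign in fresh pool IM834 (-0.30 to 0.70), at day 1 (-0.21 to 0.54) and at day 3 (-0.54 to 0.73). Fresh pool IM793 had another order, with S100a8 at 1641, C1q at 1058, Csf1r at 1007 and T at 863. Between neighbours in these orders the middle 50% of cells mostly overlapped. In fresh pool IM834, for example, the quartiles were 512 and 905 rpm in the T gate, 333 and 737 in the B gate, and 267.8 and 672 in the C1q gate.

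**Figure D3:**
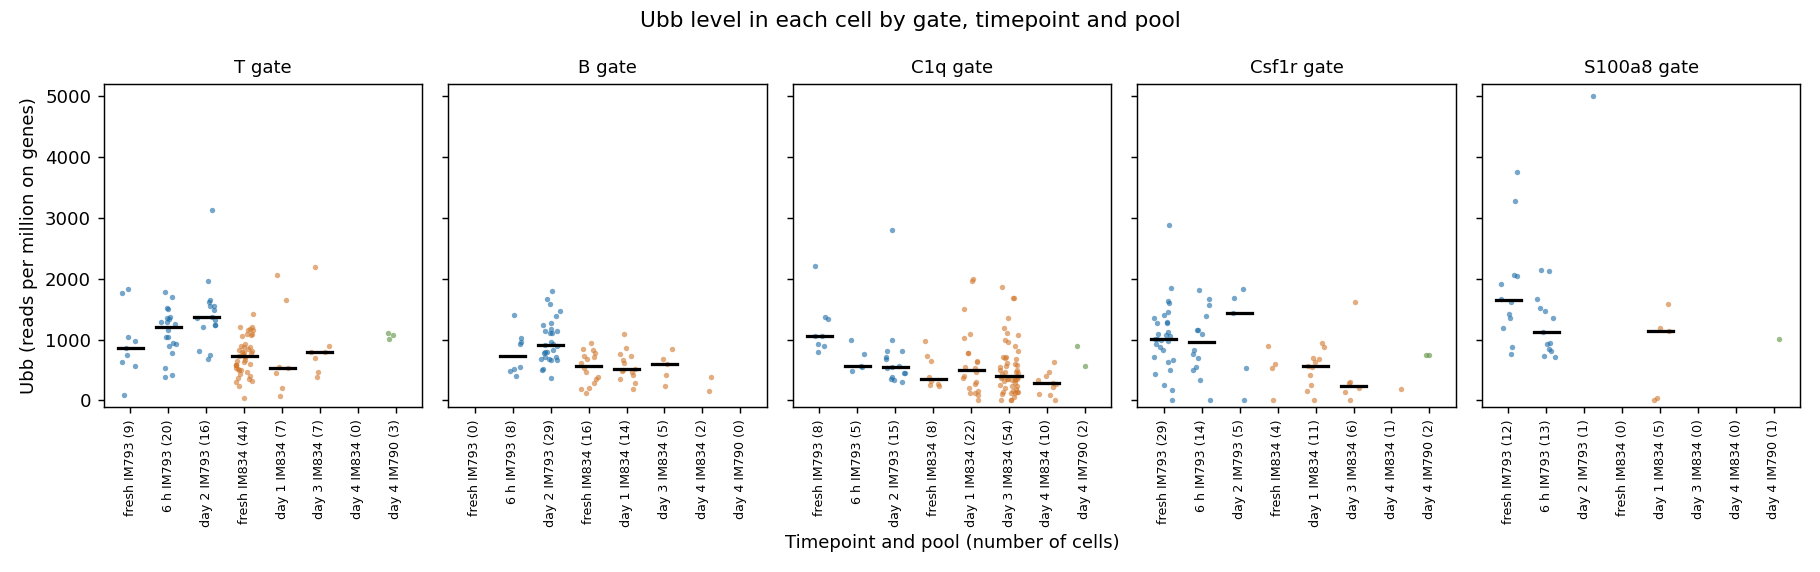
Ubb in each cell (y axis, rpm) in 5 panels, one for each marker gate, by timepoint and pool (x axis, with the number of cells). Points are cells and black lines are medians of groups of at least 5 cells. In pool IM793 the T gate medians are 863, 1213 and 1364 rpm in fresh, 6 hour and day 2 cells, and the C1q gate medians are 1058, 565 and 555.

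In the T gate the 9 fresh cells of pool IM793 ran from 82 to 1827 rpm with a median of 863, the 20 cells of 6 hours from 382 to 1779 with a median of 1213, and the 16 cells of day 2 from 675 to 3119 with a median of 1364. The groups overlap, but 16 of 20 cells at 6 hours and 13 of 16 at day 2 were above the fresh median. The sums were higher by less at 6 hours, by a log2 ratio of 0.12 (0.075 to 0.157), than at day 2, by 0.51 (0.47 to 0.55). Of all genes in this gate 21.6% were past 1 upward and 24.3% downward at 6 hours, and 27.1% and 24.2% at day 2. In pool IM834 the 44 fresh T gate cells ran from 37 to 1417 rpm with a median of 723, the 7 cells of day 1 from 74 to 2064 with a median of 533, and the 7 cells of day 3 from 392 to 2186 with a median of 792. The log2 ratios of the sums were -0.27 (-0.33 to -0.21) at day 1, which was 0.00 with DESeq2 size factors, and 0.64 (0.59 to 0.69) at day 3. At day 3, 1 cell held 52.6% of the Ubb reads, and without it the ratio was 0.03. Genes past 1 made up 37% upward and 15.1% downward at day 1 and 36.5% and 17.2% at day 3.

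In the B gate there were 8 cells at 6 hours (404 to 1400 rpm, median 735) and 29 at day 2 (371 to 1790, median 917), with no fresh cell in pool IM793 to compare them with. In pool IM834 the 16 fresh cells ran from 120.8 to 945 rpm with a median of 570.0 and the 14 cells of day 1 from 185.6 to 1088 with a median of 508. The 5 cells of day 3 had 232.03, 410.1, 590.2, 675 and 843 rpm, all within the range of the fresh cells. The log2 ratios were 0.09 (0.030 to 0.148) at day 1, which was -0.17 by medians, and -0.06 (-0.13 to 0.02) at day 3, the only interval of these within-gate comparisons that holds 0. Genes past 1 made up 24.2% upward and 24.1% downward at day 1 and 36.7% and 17.6% at day 3.

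The C1q gate of pool IM793 had less Ubb after preservation. Its 8 fresh cells ran from 802 to 2214 rpm with a median of 1058. The 5 cells of 6 hours had 488, 546, 565, 760 and 989.9 rpm, and the 15 cells of day 2 ran from 295 to 2794 with a median of 555. None of the 5 cells at 6 hours and 1 of the 15 at day 2 was above the fresh median, and 4 of 5 and 11 of 15 were below the lowest fresh cell. The sums were 1210, 613 and 620 CPM, log2 ratios of -0.98 (-1.04 to -0.92) and -0.97 (-1.01 to -0.92), both just inside the mark of 1. With TMM factors they were -1.37 and -1.02, both past it. Under all alternatives they ran from -1.37 to -0.53 and from -1.02 to -0.51. In this gate 34.3% of genes were past the mark upward and 16.2% downward at 6 hours, and 22.8% and 23.8% at day 2. About 1 in 2 genes (51.04% and 48.1%) lay at least as far from 0 as Ubb. The fresh cells of this gate had a median of 3595.5 genes, against 2392 at 6 hours and 1983 at day 2. They also held neutrophil markers, with 5 of 6 listed genes read (G0s2 at 0) and a summed level of 686 CPM. At 6 hours 0 of 6 were read, and at day 2 there were 3 of 6 at 64.8 CPM, with Retnlg, Cxcr2 and G0s2 at 0. The fresh cells of the gate also held kidney epithelial markers at 111.1 CPM against 36.4 and 45.2. With the cells of 10 or more S100a8 reads left out the ratios were -0.81 and -0.80, and the part of the other differences was not tested.

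In the C1q gate of pool IM834 Ubb was not lower at day 1 or day 3 by its sums. Its 8 fresh cells ran from 230 to 970 rpm with a median of 351, the 22 cells of day 1 from 0 to 1992 with a median of 498, and the 54 cells of day 3 from 0 to 1867 with a median of 395. The log2 ratios were 0.25 (0.18 to 0.32) at day 1 and 0.15 (0.09 to 0.21) at day 3, the latter -0.15 with DESeq2 size factors. Means of log2(rpm + 1) turned both, to -0.23 and -0.46. Of the cells, 14 of 22 and 33 of 54 were above the fresh median, and 6 of 22 and 13 of 54 were below the lowest fresh cell. The median cell had 2221 genes in fresh cells, 2041 at day 1 and 1693.5 at day 3. The paper describes a cluster, absent when fresh, that it takes as most likely macrophages of low quality or in apoptosis. Whether such cells lie in this gate was not tested. Genes past 1 made up 16% upward and 32.1% downward at day 1 and 14.4% and 33.5% at day 3. The 10 cells of day 4 ran from 0 to 625 rpm with a median of 283, a log2 ratio of -0.66 (-0.75 to -0.57) against fresh and of -0.81 (-0.88 to -0.74) against day 3. Under the alternative settings these ran from -1.56 to -0.31 and from -1.10 to -0.48. The day 4 difference of pool IM834 was thus also seen within the C1q gate, in which 3 of 10 cells were above the fresh median and the median cell had 1134 genes against 2221 in fresh cells. Genes past 1 made up 31.5% upward and 20.4% downward against fresh, and 39.8% and 15.4% against day 3.

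Fresh cells of the 2 pools could be set against each other in the C1q and T gates. In the C1q gate the log2 ratio of fresh pool IM793 over fresh pool IM834 was 1.35 (1.29 to 1.42), where 18.3% of genes were past 1 upward and 30.7% downward. All 8 cells of pool IM793 were above the median of pool IM834 and 5 of them were above its highest cell. Without the cells of 10 or more S100a8 reads it was 1.19, and with DESeq2 size factors it was 0.82, inside the mark of 1. In the T gate, the other gate with at least 5 fresh cells in both pools, the ratio was 0.55 (0.50 to 0.59), or 0.17 with TMM factors, with 28% of genes past 1 upward and 19.7% downward, and 6 of 9 cells were above the median of pool IM834.

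In the Csf1r gate of pool IM793 the 29 fresh cells ran from 0 to 2879 rpm with a median of 1007 and the 14 cells of 6 hours from 0 to 1813 with a median of 957. The 5 cells of day 2 had 0, 528, 1441, 1681 and 1826 rpm. The log2 ratios were -0.13 (-0.16 to -0.10) and 0.16 (0.11 to 0.21), the latter -0.50 with TMM factors and -1.33 by means of log2(rpm + 1), among 23.9% of genes past 1 upward and 17.8% downward at 6 hours and 43.2% and 15.4% at day 2. In pool IM834 the 11 cells of day 1 ran from 11 to 950 rpm with a median of 567 and the 6 cells of day 3 from 0 to 1609 with a median of 238.1. In the S100a8 gate the 12 fresh cells of pool IM793 ran from 765 to 3756 rpm with a median of 1641 and the 13 cells of 6 hours from 718 to 2142 with a median of 1127. The log2 ratio was -0.49 (-0.52 to -0.45), or 0.010 with a marker minimum of 1 read, and 3 of 13 cells were above the fresh median, while 26% of genes were past 1 upward and 25.1% downward. The 5 cells of day 1 in pool IM834 were split, with 9.59 and 42.5 rpm in a pair of cells and 1137, 1186 and 1584 in the others. The highest cell of all, at 5000 rpm, was the single S100a8 gate cell of day 2.

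**Figure D4:**
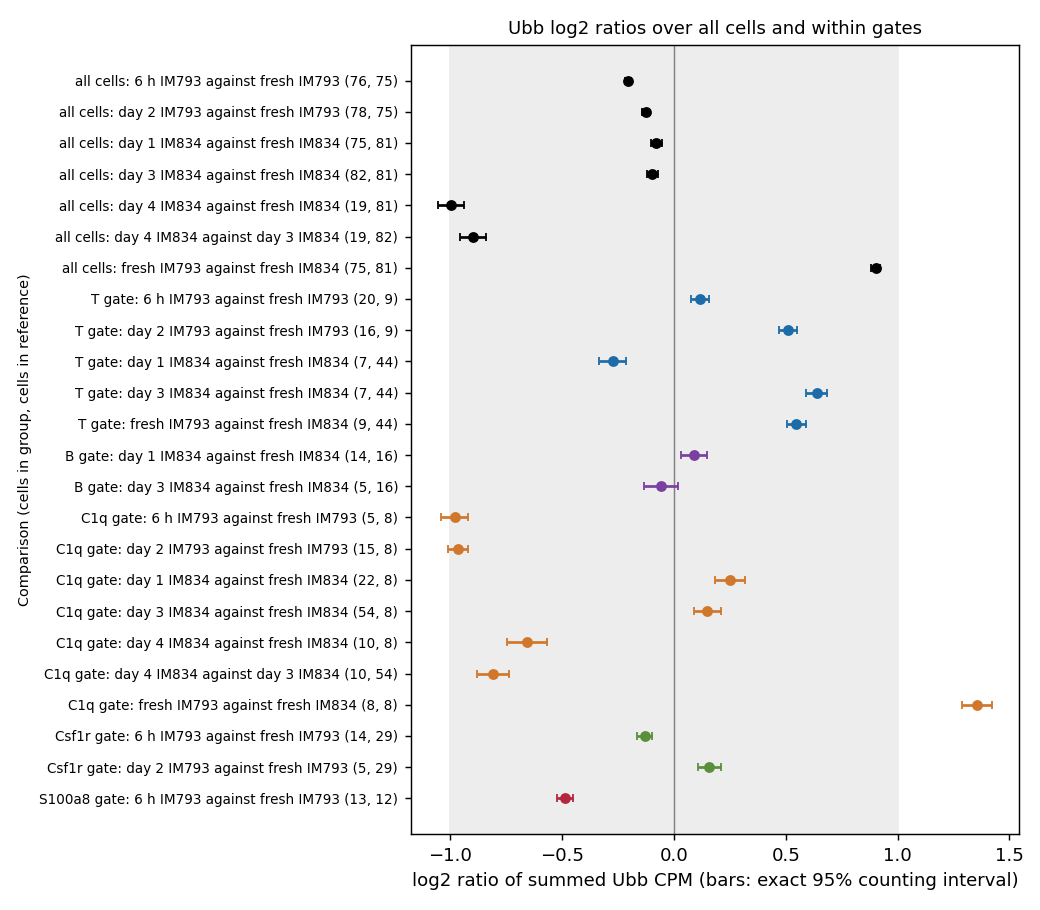
Log2 ratio of summed Ubb CPM (x axis) for the 7 comparisons over all cells and those within gates (y axis, with the cells in the group and in its reference). Bars are exact 95% counting intervals, which do not cover the spread between cells or mice, and the grey band spans -1 to 1. Points past the band are limited to the C1q gate of the fresh pools, at 1.35, which was 0.82 with DESeq2 size factors. The C1q gate of pool IM793 lies at -0.98 and -0.97, which were -1.37 and -1.02 with TMM factors.

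The same gates were also set against each other inside a group. The log2 ratio of the T gate over the C1q gate was -0.23 in fresh cells of pool IM793, 0.87 at 6 hours and 1.25 at day 2. With DESeq2 size factors it was 0.30 at 6 hours and 0.62 at day 2, and under all alternatives it lay between 0.30 and 1.22 and between 0.62 and 1.30. In pool IM834 it was 0.58 in fresh cells, 0.06 at day 1 and 1.07 at day 3. Against the B gate the T gate stood at 0.51 at 6 hours, 0.61 at day 2, 0.38 in fresh cells of pool IM834, 0.02 at day 1 and 1.07 at day 3. Against the S100a8 gate it stood at -0.77 in fresh cells of pool IM793, -0.16 at 6 hours and -0.80 at day 1, where the 5 cells of the S100a8 gate held a pair near 0. The day 3 values of the T gate rest in part on its 1 cell with 52.6% of the reads, and without the highest cell they were 0.48 over the C1q gate and 0.64 over the B gate. By these sums the T gate stood above the B gate in each of the 5 groups that held both, by only 0.02 at day 1, and below the S100a8 gate in each of 3. Under the alternatives the T over S100a8 value ran from -2.24 to -0.38 in fresh cells, but changed sign at 6 hours (-1.28 to 0.11) and at day 1 (-1.42 to 0.97). At day 1 the T gate values over the B gate (-0.36 to 0.21) and over the C1q gate (-0.50 to 0.46) also changed sign, as did that over the C1q gate in fresh cells of pool IM834 (-0.11 to 1.04). Genes past 1 made up 19.9% to 46.6% upward and 13.3% to 36% downward over the 6 comparisons of the T and C1q gates. For the T over the B gate it was 18.8% to 35.8% upward and 18.4% to 31.7% downward, and for the T over the S100a8 gate 26.4% to 43.8% upward and 23% to 31.8% downward.

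Rps27a had another pattern than Ubb. Per length of annotated exons and over all cells, Ubb had 534 reads per 1000 bases and 1000000 counts and Rps27a 317. Rps27a had 646, 734 and 914 CPM in fresh, 6 hour and day 2 cells of pool IM793 and 489, 339, 398 and 552 in fresh, day 1, day 3 and day 4 cells of pool IM834. Its log2 ratios against fresh were 0.18 at 6 hours and 0.50 at day 2, and -0.53, -0.30 and 0.17 on days 1, 3 and 4. At day 2 both Rps27a and Ubb had more than at 6 hours in pool IM793, while at day 4 of pool IM834 Rps27a had more than at day 3 and Ubb had less. In the C1q gate of pool IM793 at 6 hours Rps27a stood at 0.41 where Ubb stood at -0.98. In the T gate of pool IM834 it was at -1.38 and -1.11 on days 1 and 3, where Ubb stood at -0.27 and 0.64.

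The rows that share sequence with Ubb were set beside it because reads may be split among them. Gm1821 had 58603 reads and was read in 95.02% of cells, and Gm8797 had 15037 reads in 93.2% of cells. In pool IM834 there were 25.2, 24.6, 25.6 and 25.3 Gm1821 reads for every 100 Ubb reads in fresh, day 1, day 3 and day 4 cells, almost the same number at each time. In pool IM793 there were 12.96, 16.9 and 19.9 in fresh, 6 hour and day 2 cells, and in pool IM790 there were 13.1. Gm8797 went the other way between the pools, with 4.20, 5.15 and 6.52 reads for every 100 Ubb reads in pool IM793, 6.04 in pool IM790, and 2.70, 3.45, 3.77 and 3.04 in pool IM834. The number of reads given to each copy for every 100 Ubb reads thus differed between pools. It also differed between timepoints for both copies in pool IM793 and for Gm8797 in pool IM834. With the 3 rows summed the log2 ratio of the fresh pools was 0.78, those of pool IM793 were -0.15 at 6 hours and -0.02 at day 2, and that of day 4 in pool IM834 was -0.99. In the C1q gate of pool IM793 they were -0.86 at both times.

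**Figure D5:**
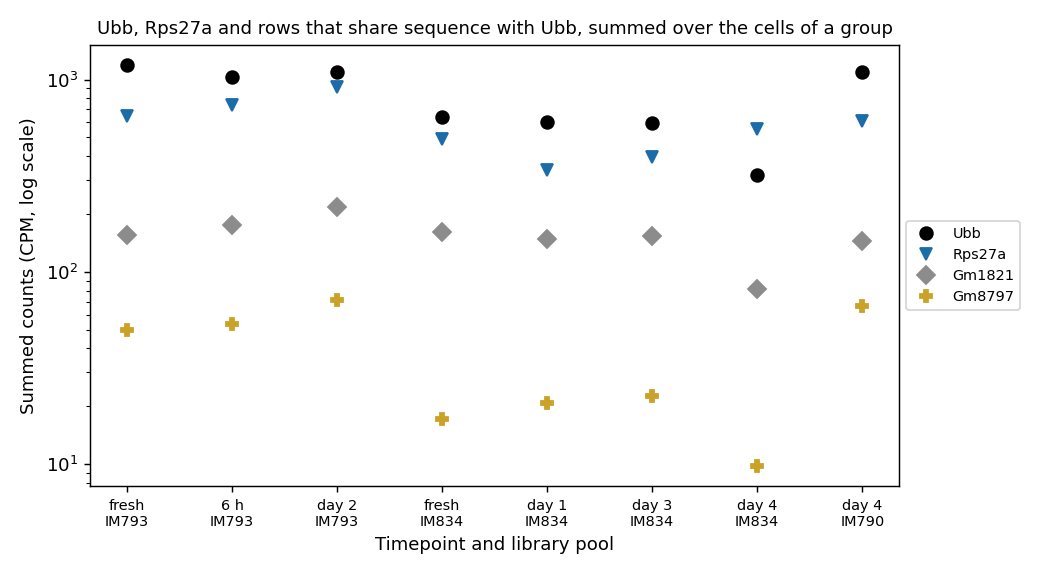
Summed CPM (y axis, log scale) of Ubb, of Rps27a, and of Gm1821 and Gm8797, which share 75-base windows with Ubb, by timepoint and library pool (x axis). Of these rows Ubb is the highest in each group but day 4 of pool IM834, where Rps27a has 552 CPM and Ubb 321.

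The genes whose levels were most like those of Ubb were looked for among the other 597 genes read in at least 50% of cells, by the Pearson r of log2(CPM + 1) over 26 groups of 1 gate, timepoint and pool. The groups share pools and cell types and are not independent, so the values are a description. The first was Gm8797 with r = 0.89, and Gm1821 had rank 4 with 0.81, both copies of Ubb sequence. The other rows of the first 10 were Gm4735 (0.83), RP24.324L19.3 (0.83), RP23.349J3.8 (0.76), the glycolytic enzyme genes Eno1 (0.76) and Gapdh (0.76), the actin-binding protein gene Cotl1 (0.75), Actb (0.72) and Eno1b (0.71). The least like were Rab14 (-0.62), Snx5 (-0.64) and Gm8909 (-0.70). The median over all 597 genes was 0.098, and 71 genes reached 0.5. Rps27a, at 0.10, was near the median gene. Ranked by Spearman's rho, 8 of the first 10 were shared. Over the 8 groups of 1 timepoint and pool only 2 were shared, and the median r over genes was 0.44 there.

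The rest of the ubiquitin system was read from lists of 3 E1 enzymes, 28 E2 enzymes, 25 deubiquitinases, 15 ubiquitin receptors and shuttles and 15 ubiquitin-like modifiers, with 12 heat shock genes beside them. Counts of list genes past 1 in either direction are read against the shares of all genes, which were 21.5% upward and 15.1% downward at 6 hours, 27.1% and 18.4% at day 2, 20.1% and 21% at day 1, 21.1% and 22.4% at day 3, and 33.2% and 22.8% at day 4. Over all cells no E1 gene was past 1 at 6 hours, day 2 or day 3. Uba1, the main activating enzyme gene for ubiquitin, stayed between -0.43 and -0.06 against fresh, and Uba7, which activates the modifier Isg15, was at -1.03 at day 1 and -1.43 at day 4. Of the E2 genes 2 of 27 were past 1 upward and 3 downward at 6 hours, 3 and 3 of 27 at day 2, 0 and 9 of 26 at day 1, 2 and 5 of 26 at day 3, and 2 and 3 of 18 at day 4. At day 1 the 9 lower ones, 34.6% of those tested beside 21% of all genes, included Ube2v2 (-2.62) and Ube2l6 (-2.28), while Ube2d3, an abundant enzyme for many ligases, stood at 0.09. Within gates at day 1 the E2 genes past 1 were 4 upward and 4 downward of 14 in the T gate. This was 28.6% each way, beside 37% of all genes upward and 15.1% downward. In the B gate it was 4 and 4 of 17, or 23.5% each way beside 24.2% and 24.1%. For the C1q gate it was 1 and 8 of 17, or 47.1% downward beside 32.1% of all genes. The difference between the gates was not tested. The E2 medians against fresh were -0.15 at 6 hours, -0.09 at day 2, -0.28 at days 1 and 3 and -0.09 at day 4. The medians of all genes were 0.16, 0.23, -0.08 at both days 1 and 3, and 0.25 in the same order.

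At days 1 and 3 of pool IM834 more deubiquitinase genes were past 1 downward than upward, but not at day 4. Of 25 tested, 2 were past 1 upward and 8 downward at day 1, and 2 and 11 at day 3, where 44% downward stands beside 22.4% of all genes and the list median was -0.89 beside -0.08. Within gates at day 3 the counts were unlike, a difference that was not tested. For C1q cells 1 was past 1 upward and 9 of 18 downward, 50% beside 33.5% of all genes. In the T gate it was 4 and 2 of 13, with 30.8% upward beside 36.5%, and in the B gate 6 and 2 of 11, with 54.5% upward beside 36.7% and a list median of 1.39 beside 0.43. At day 3 the T gate held only 7 cells and the B gate 5. The values over all cells that follow hold both the mix of cells and the level in a cell. Usp10 was at -2.74, Uchl3 at -1.86 and Otub1 at -1.57 at day 3, and Atxn3, a Josephin deubiquitinase gene, was at 3.45. In pool IM793, 2 and 3 of 25 were past 1 at 6 hours and 3 and 7 at day 2, among them Usp18, which removes Isg15, at -2.70. At day 4, 4 and 4 of 16 were past 1, 25% each way beside 33.2% and 22.8% of all genes, and the list median was 0.002 beside 0.25. Among the receptors and shuttles, 1 and 2 of 14 were past 1 at 6 hours, 2 and 1 of 14 at day 2, 2 and 4 of 14 at day 1, 1 and 3 of 13 at day 3, and 0 and 4 of 12 at day 4. Upward these shares, 0% to 14.3%, were below those of all genes in each comparison. Downward they were 14.3% beside 15.1% at 6 hours, 7.14% beside 18.4% at day 2, 28.6% beside 21% at day 1, 23.1% beside 22.4% at day 3 and 33.3% beside 22.8% at day 4. The autophagy receptor gene Sqstm1 stayed between -0.71 and 0.37 and the segregase gene Vcp between -0.36 and 0.60 in these comparisons.

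Over all cells of day 4 in pool IM834 more ubiquitin-like modifier genes were past 1 upward than downward. Of 11 tested, 6 were past 1 upward and 1 downward, 54.5% upward beside 33.2% of all genes, with a list median of 1.23 beside 0.25 over all genes, where Ubb was at -0.995. Within the C1q gate at day 4 it was 4 and 1 of 9, 44.4% upward beside 31.5%. The 6 were Nedd8 (1.27), Sumo2 (1.29), Sumo3 (1.30), Ufm1 (1.53), Gabarap (1.28) and Map1lc3b (1.23), and Gabarapl2 was at -3.54. At day 1, 2 of 12 were past 1 upward and 0 downward, at day 3 1 and 0 of 12, at 6 hours 0 and 2 of 15, and at day 2 2 and 4 of 15. The interferon-induced Isg15 was at -2.36 at 6 hours and -3.29 at day 2.

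Heat shock genes are known to be induced by stress, as Ubb is, and the list held a pair of genes with values far from that of Ubb. Hspa1a and Hspa1b, which code for inducible Hsp70 and are near copies of each other, so that their counts are uncertain, stood at 1.18 and 1.09 at 6 hours and 3.47 and 3.38 at day 2 in pool IM793. In pool IM834 they stood at 4.64 and 4.90 at day 1, 5.35 and 5.54 at day 3, and 4.10 and 4.77 at day 4. Of the heat shock genes tested, 3 of 11 were past 1 upward and 1 downward at 6 hours, 5 and 1 of 12 at day 2, 5 and 0 of 11 at day 1, 3 and 0 of 11 at day 3, and 3 and 2 of 11 at day 4. Upward this was 27.3% beside 21.5% of all genes at 6 hours, 41.7% beside 27.1% at day 2, 45.5% beside 20.1% at day 1, 27.3% beside 21.1% at day 3 and 27.3% beside 33.2% at day 4. The list medians were 0.005, 0.43, 0.97, 0.09 and 0.22 in the same order, beside 0.16, 0.23, -0.08, -0.08 and 0.25 over all genes. Within gates of pool IM834 against fresh cells, 6 of 9 were past 1 upward in the T gate at day 1 (66.7% beside 37% of all genes) and 6 of 9 at day 3 (66.7% beside 36.5%). In the B gate it was 6 of 8 at day 1 (75% beside 24.2%) and 3 of 8 at day 3 (37.5% beside 36.7%), and in the C1q gate 5 of 10 at day 1 (50% beside 16%) and 3 of 10 at day 3 (30% beside 14.4%). None of the tested ones was past 1 downward in these 6 cases but for 2 of 10 in the C1q gate at day 3. Against fresh cells of pool IM793 it was 3 of 10 in the T gate at 6 hours (30% beside 21.6%) and 2 of 9 at day 2 (22.2% beside 27.1%). Downward it was 2 of 10 (20% beside 24.3%) and 2 of 9 (22.2% beside 24.2%). C1q gate counts there were 0 of 10 upward at 6 hours (0% beside 34.3%) and 4 of 11 at day 2 (36.4% beside 22.8%), with 1 and 0 downward. Csf1r gate counts upward were 4 of 11 (36.4% beside 23.9%) and 4 of 10 (40% beside 43.2%), the last with 4 downward too. The S100a8 gate at 6 hours had 2 of 6 upward (33.3% beside 26%). Downward counts of the Csf1r and S100a8 gates at 6 hours are not given here. At day 4 of pool IM834 against fresh, the C1q gate had 3 of 10 upward (30% beside 31.5%) and 4 downward (40% beside 20.4%). In the C1q gate at day 4 against day 3, 0 of 10 were past 1 upward beside 39.8% of all genes and 5 downward, 50% beside 15.4%, with a median of -0.49 beside 0.59, where Ubb stood at -0.81. Hspa8, the constitutive family member, stayed between -0.34 and 0.68. Ubb was between -0.21 and -0.08 in the first 4 of these comparisons. In the T gate Hspa1a stood at 4.12 at 6 hours and 5.31 at day 2, where Ubb stood at 0.12 and 0.51, and in the C1q gate Hspa1a stood at 0.24 and 2.75, where Ubb stood at -0.98 and -0.97.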

How the data were processed

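The deposited table holds counts of reads for each gene and cell, made by the authors from reads trimmed to 75 bases, with removal of duplicate reads (Picard), STAR for alignment to GRCm38 and HTSeq for counting in its intersection-strict mode without regard to strand, per the study's methods and the submitters' processing notes. The sources used here do not say what was done with reads that had several best positions. The 96 spike-in rows (0.000185% of counts) and 1 vector row (0.139%) were left out of all totals. All 502 cells were kept.

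Groups came from the time label and from the number in the title, read as library pool. Per-cell rpm, summed CPM with exact Poisson intervals, shares with exact Clopper-Pearson intervals and log2 ratios with conditional exact intervals were computed in Python 3.11.15 (SciPy 1.17.1, pandas 2.3.3). A ratio needed 5 cells a group, and the genes set beside Ubb needed 50 counts in both sums. With 1 sample per timepoint no model was fitted and no p-value was computed. edgeR 4.0.16 and DESeq2 1.42.0 gave only scaling factors for alternatives. The ratio script was tested on simulated data.

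Ubb and all gene lists were chosen with earlier results of these data known. Named were Ubb, genes of the lists, and the 10 genes most and 3 least like Ubb; Gm1821 and Gm8797 were also examined for shared sequence after their values were seen. Alternatives changed the scaling, the marker minimum, the reference, the cells kept and the summary used. Some genes of the lists are not reported here.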

Additional observations from a re-analysis of the deposited data

Results flagged for a closer look

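In pool IM793 the log2 ratio of Ubb against fresh cells had opposite signs in the T and C1q gates. It was 0.12 at 6 hours and 0.51 at day 2 in the T gate, and -0.98 at 6 hours and -0.97 at day 2 in the C1q gate. The fresh reference held 9 cells in the T gate and 8 in the C1q gate. The difference between the gates was not tested, because each timepoint was 1 sample.

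The 14 day 4 cells of pool IM790, a pool with no fresh cells and so in no comparison, had 1099 Ubb CPM, against 321 CPM in the day 4 cells of pool IM834.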

How the results depend on the processing

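No paired analysis was possible because no label pairs cells of different timepoints and no test was run. Over all cells 6 of 75 alternative values moved by over 0.5 on the log2 scale, and within gates 10 did. Those of the C1q gate of pool IM793 ran from -1.37 to -0.53 at 6 hours and from -1.02 to -0.51 at day 2. Those of the T gate of pool IM793 ran from 0.061 to 0.54 and from 0.34 to 0.93. The fresh cells of both pools together as reference gave -0.62 at day 1, -0.64 at day 3 and -1.54 at day 4 of pool IM834 over all cells, and -0.65, -0.75 and -1.56 in the C1q gate. With that reference 6 hours and day 2 over all cells turned to 0.15 and 0.23. Means of log2(rpm + 1), which weigh cells without a read, gave -0.82 at day 3, -2.44 at day 4 and -1.63 for day 4 against day 3. They gave -0.46 at day 3 and -1.44 at day 4 in the C1q gate, and -1.33 at day 2 in the Csf1r gate. In the Csf1r gate TMM factors gave -0.50 at day 2. With DESeq2 size factors the fresh pools differed by 0.82 in the C1q gate, and day 4 of pool IM834 stood at -0.61 over all cells. In the T gate at day 3 the medians gave 0.13, and the sums without the highest cell gave 0.029. A marker minimum of 1 read moved the S100a8 gate at 6 hours to 0.010. The B gate ratios changed sign under some settings, from -0.17 to 0.38 at day 1 and from -0.35 to 0.13 at day 3. Between gates 428 of 473 values moved by less than 0.5 and 50 changed sign. Without a count minimum, genes past a log2 ratio of 1 went from 3795 to 8806 at 6 hours, from 4486 to 10186 at day 2, from 3895 to 9367 at day 1, from 4053 to 9569 at day 3, from 2770 to 11103 at day 4, from 2543 to 10776 for day 4 against day 3, and from 4528 to 10789 between the fresh pools. Over timepoint by pool groups, 2 of the 10 genes most like Ubb were shared. Gates of 5 to 20 cells limit what can be seen, since 1 cell can move their level. The causes were not tested.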
